A study of Mus musculus with 7 samples.

Results

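Collagens and laminins are the 2 large gene families of structural matrix proteins, and their mRNA levels were compared between the retina of wild-type mice and of SCA7 mice, a model of spinocerebellar ataxia type 7 in which expanded ataxin-7 also causes a degeneration of the retina. The genes were chosen by symbol from the protein-coding rows of the count table: every Col gene with a chain number (44 genes) and every Lama, Lamb or Lamc gene (11 genes), together 55 of 21819 protein-coding genes. Total RNA-seq libraries came from 7 mice of 12.5 weeks on the C57BL/6J strain, 1 library from the 2 retinas of each mouse. The 4 WT mice carried no knock-in allele, and the 3 SCA7 homozygous knock-in mice carried 140 glutamines on both *Atxn7* alleles (140Q/140Q), expressed from the gene's own locus and so not confined to photoreceptors. Neither group received a treatment, and the sex of the mice is not given in the labels.

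A basement membrane is a thin sheet of matrix on which epithelia, vessels and glial endfeet rest. In the retina it forms the inner limiting membrane, the vessel wall and, beneath the pigment epithelium, a part of Bruch's membrane. Its scaffold is a polymer of laminins, each made of an alpha, a beta and a gamma chain, tied to a network of collagen IV, in which the *Col4a1* and *Col4a2* chains build the trimer common to most tissues, the chains of *Col4a3*, *Col4a4* and *Col4a5* build another, and *Col4a5* and *Col4a6* contribute to a further trimer. Fibrillar collagens instead form banded fibrils, as in sclera, cornea and vitreous, and FACIT collagens (fibril-associated collagens with interrupted triple helices) sit on the surface of such fibrils.

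The members were split by structure into 19 basement membrane genes (*Col4a1* to *Col4a6*, *Col15a1*, *Col18a1* and the 11 laminins), 11 fibrillar, 9 FACIT, 6 beaded filament (*Col6a1* to *Col6a6*), 3 network and 4 transmembrane collagens, the anchoring fibril gene *Col7a1*, and 2 others. All but *Col6a5* had enough counts to be tested. Together they took between 0.0388% and 0.0615% of the counts of a library, whose totals lay between 56497675 and 96635832. Levels of the same gene are given below as CPM, a library's counts scaled to a common total by TMM. Genotypes were compared with the quasi-likelihood test of edgeR over all 20128 genes tested, with Benjamini-Hochberg adjustment. Calls needed an adjusted p below 0.05, and an FC (SCA7/WT) below 0.7 for a downregulated or above 1.3 for an upregulated gene.

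The libraries showed the tissue they were labelled with. The summed level of 8 rod markers lay between 59820 and 61962 CPM in WT, whereas 4 cornea and conjunctiva keratinocyte markers summed to no more than 14.5 CPM in any library and 6 lens markers to no more than 53.7 CPM. Many members lie at such levels too, and both sums varied between libraries. The lens sum was 10.6, 32.1, 17.8 and 3.33 CPM in WT and 27.1, 53.7 and 3.33 CPM in SCA7. The cornea and conjunctiva sum was 4.48, 14.5, 5.96 and 5.25 CPM in WT and 8.01, 11.4 and 3.99 CPM in SCA7. Some WT libraries also stood apart for other tissue next to the neural retina. WT replicate 1 had the highest level of *Optc* (22.7 against 1.64 to 8.11 CPM), a marker of the ciliary epithelium, and of the fibroblast marker *Fbln1* (38.6 against 3.86 to 12.2 CPM). Both markers were also lower in SCA7 without passing the test over all 7 libraries, and each stayed uncalled in 5 of the 7 fits without a library. *Optc* was at 0.703 to 0.959 CPM in SCA7 (log2 fold change −3.62, adjusted p = 0.054) and *Fbln1* at 1.21 to 2.25 CPM (log2 fold change −3.15, adjusted p = 0.069), below every WT library. WT replicate 3 had the lowest summed level of 13 pigment epithelium markers (145 CPM, against 245 to 280 in the other WT libraries). Their part in the results below was not tested.

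*Col4a3* and *Col4a4*, which both fell in SCA7 retina under every alternative analysis, lie head to head on chromosome 1 and are read outward from a short stretch between their starts. The 71 bases between the annotated starts, chr1:82586850-82586920 of GRCm38.p6, are shown on the plus strand because both genes fell. They are 69% G and C and hold none of the motifs searched on both strands (TAATCC, the core site of CRX; TGCTGA, an NRL half-site; GGGCGG, the GC box; and the CCAAT box).

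Col4a4 to Col4a3: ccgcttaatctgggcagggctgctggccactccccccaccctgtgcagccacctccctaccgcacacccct

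CRX and NRL are the transcription factors that drive photoreceptor genes, so their short motifs were looked for in the RefSeq promoter windows (GRCm38.p6, 250 bases before to 50 after the start) of the 40 members that have an entry, 44 windows in all. TAATCC was present in 1 of the 44 windows (2.27%), against 7.06% of all 32851 windows of the genome, and TGCTGA in 7 (15.9%), against 19.5%. GGGCGG was present in 26 (59.1%, against 35.7%) and CCAAT in 14 (31.8%, against 37.4%). Of the 6 members whose calls held under every alternative analysis, 4 had a window, and 3 of these held a CRX or NRL motif, and 60 bases around each are printed 5′ to 3′ on the strand of the gene with the motif in capitals. They are *Col19a1* (chr1:24587488-24587547, minus strand, motif 83 bases before the RefSeq start), *Col5a3* (chr9:20815195-20815254, minus strand, 160 bases) and *Lamb2* (chr9:108479785-108479844, plus strand, 50 bases). The *Lamb2* stretch lies inside the GENCODE gene, whose outermost start is at 108479736.

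Col19a1: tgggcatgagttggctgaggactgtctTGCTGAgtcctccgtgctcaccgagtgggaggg

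Col5a3: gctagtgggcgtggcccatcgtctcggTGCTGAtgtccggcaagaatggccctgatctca

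Lamb2: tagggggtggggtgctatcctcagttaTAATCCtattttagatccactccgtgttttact

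A gene that fell and genes that rose thus carried such letters. A match of this length is a description of the sequence and not a binding site.

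In SCA7 retina 8 of the 54 members tested were downregulated (*Col4a3*, *Col4a4*, *Col7a1*, *Col19a1*, *Col20a1*, *Col24a1*, *Col27a1* and *Lamb3*) and 6 were upregulated (*Lamb2*, *Lama4*, *Lama5*, *Col4a6*, *Col5a2* and *Col5a3*). Among all 15422 protein-coding genes tested, 6.13% were downregulated and 8.81% upregulated. In 11 members every SCA7 library was below every WT library, and in 6 every one was above, while 17.0% and 23.7% of all protein-coding genes tested were separated in these directions. The median log2 fold change was −0.13 over the members and 0.02 over the protein-coding genes. The 43 collagens tested held 7 decreases and 3 increases with a median of −0.22, and the 11 laminins held 1 decrease and 3 increases with a median of 0.05. Calls in both directions occurred in the basement membrane class and in the fibrillar class, so that neither class moved as a block.

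**Figure D1:**
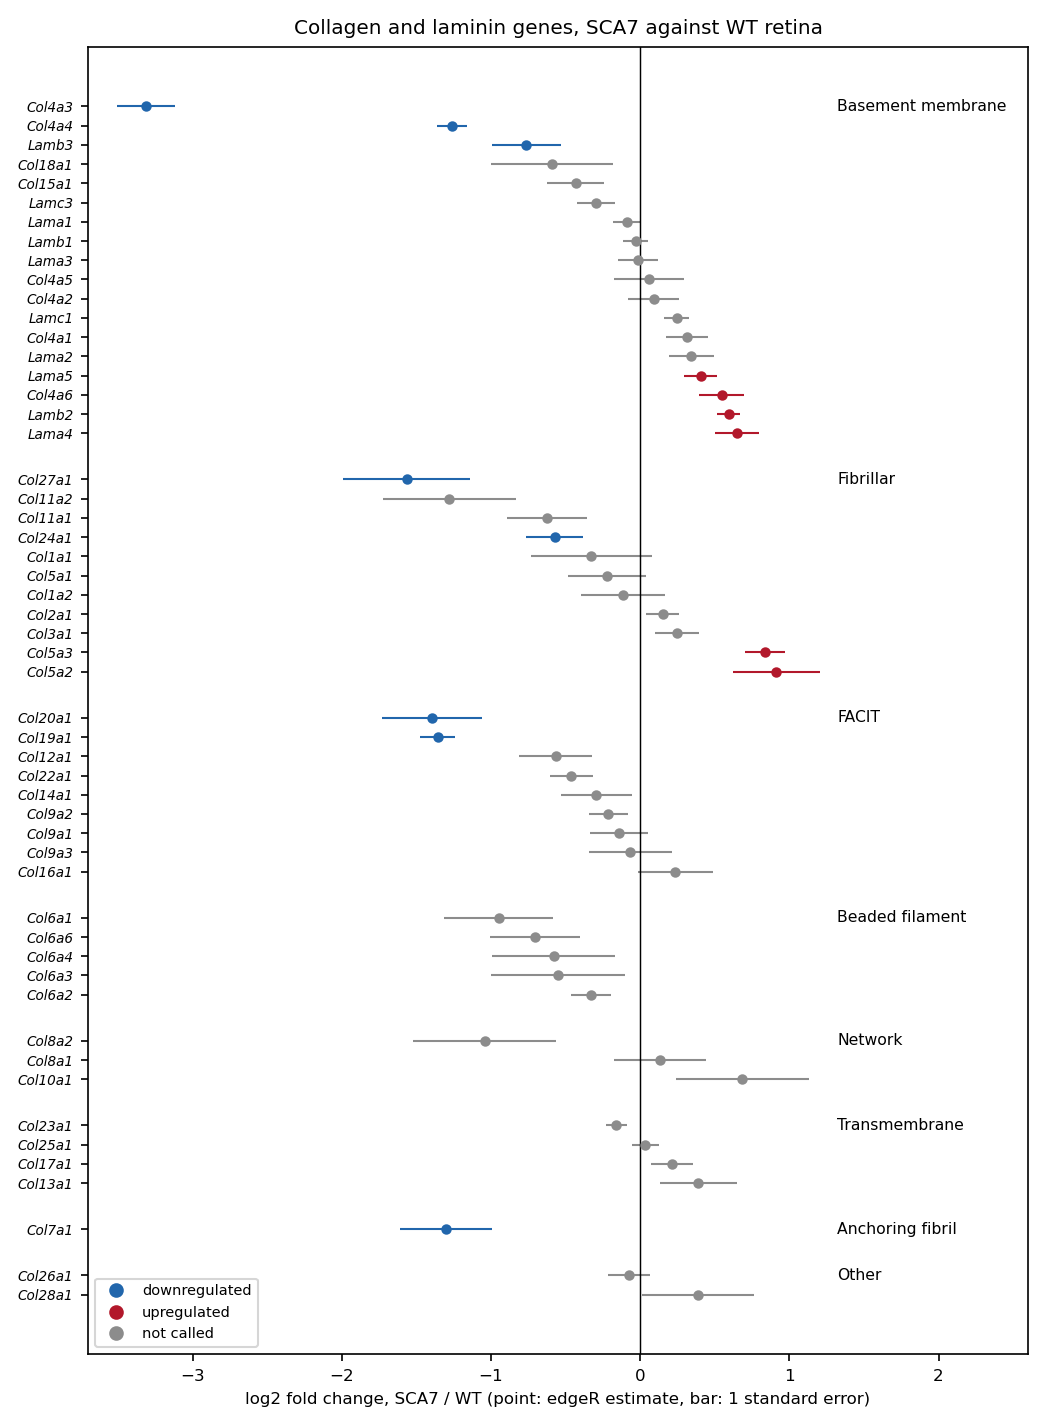
The log2 fold change (SCA7/WT) of the members is plotted by structural class, with a bar of 1 standard error. *Col4a3* lies far to the left at −3.31, and calls in both directions appear in the basement membrane and the fibrillar class.

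The level of *Col4a3*, a chain of the collagen IV trimer that is lost in Alport syndrome, was 54.8, 50.9, 38.3 and 47.0 CPM in the 4 WT libraries and 4.45, 6.18 and 3.81 CPM in the 3 SCA7 libraries. The lowest WT library was above all SCA7 libraries by a wide margin. The log2 fold change was −3.31 with a standard error of 0.193 (adjusted p = 7.54e-06), an FC of 0.101, and ranked 16th from the lowest of the 15422 protein-coding genes tested. Leaving out each library in turn gave values between −3.54 and −3.16. *Col4a3* shares 5.65% of its exon bases with *C430014B12Rik* on the other strand, which had 0.00728 times its CPM in WT and a log2 fold change of −0.08 (adjusted p = 0.852).

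Its partner chain *Col4a4* was at 7.52, 7.68, 7.56 and 7.68 CPM in WT and 3.48, 3.26 and 2.80 CPM in SCA7. The WT values hardly varied, with an SD of 0.0825 CPM (n = 4), and no SCA7 library came near them. The log2 fold change was −1.26 with a standard error of 0.100 (adjusted p = 3.03e-06). *Col4a5*, the chain that completes this trimer, was at 14.7, 8.68, 6.81 and 10.0 CPM in WT and 11.4, 10.6 and 9.49 CPM in SCA7, with all SCA7 libraries inside the WT range (log2 fold change 0.06, standard error 0.236, adjusted p = 0.877).

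The other collagen IV genes were higher in SCA7 on average, and 1 of them passed the test. *Col4a6*, which is also read head to head with *Col4a5*, rose from 4.94, 3.23, 3.04 and 3.47 CPM to 5.36, 5.07 and 5.63 CPM, with no overlap (log2 fold change 0.55, standard error 0.152, adjusted p = 0.018). That call was lost without WT replicate 2, SCA7 replicate 1 or SCA7 replicate 3, where the largest adjusted p was 0.070. *Col4a1*, the more abundant chain of the common trimer, was at 35.7, 34.9, 23.0 and 31.4 CPM in WT and 41.4, 40.6 and 34.6 CPM in SCA7, which overlapped (log2 fold change 0.31, standard error 0.141, adjusted p = 0.131). *Col4a2* was at 23.3, 23.3, 14.5 and 23.8 CPM in WT and 25.4, 22.6 and 19.9 CPM in SCA7 (log2 fold change 0.09, standard error 0.172, adjusted p = 0.738). WT replicate 3 was the lowest library for both of these chains.

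For 5 pairs of related chains, among them the head-to-head collagen IV pairs, the ratio of their counts per length was also compared, with the union of exons as length. *Col4a4* amounted to between 0.129 and 0.186 of *Col4a3* in WT and to between 0.496 and 0.734 in SCA7, a difference in log2 ratio of 2.06, or 4.18-fold. The groups did not overlap (exact two-sided permutation test over the 35 ways to assign the genotypes to the libraries, p = 0.0286, the smallest this design allows). Adjusted over the 5 pairs compared, the p was 0.0714, and no pair passed. A pair that is alone at the smallest p cannot pass in this design, so nothing is concluded from that. The log2 ratio of *Col4a2* to *Col4a1* differed by −0.22, of *Col4a6* to *Col4a5* by 0.45 and of *Lamb2* to *Lamb1* by 0.63 (exact permutation p = 0.0571 and adjusted p = 0.0714 for each). In these pairs too the ratios of the genotypes did not overlap. That of *Col1a2* to *Col1a1* differed by 0.24 (exact permutation p = 0.686), with overlap.

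Among the laminins, the beta chains moved in different directions. *Lamb2*, the beta 2 chain found at synapses and in the inner limiting membrane, was at 24.3, 21.2, 19.7 and 20.6 CPM in WT and 34.3, 31.0 and 31.9 CPM in SCA7. The groups were well apart, with a log2 fold change of 0.59 and a standard error of 0.077 (adjusted p = 0.000145), an FC of 1.51. *Lamb1*, a widely expressed beta chain, was at 13.2, 15.0, 16.6 and 15.4 CPM in WT and 14.9, 13.6 and 15.7 CPM in SCA7 (log2 fold change −0.03, standard error 0.087, adjusted p = 0.822). *Lamb3*, the beta 3 chain of the epithelial laminin of skin, was low, at 0.615, 0.587, 0.825 and 0.979 CPM in WT and 0.423, 0.398 and 0.496 CPM in SCA7. It was downregulated (log2 fold change −0.76, standard error 0.231, adjusted p = 0.028), and the call was lost without WT replicate 4, SCA7 replicate 1 or SCA7 replicate 2, with an adjusted p of up to 0.102.

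Of the alpha chains, *Lama4* and *Lama5*, the chains of vascular basement membranes, rose. *Lama4* was at 2.65, 2.80, 3.21 and 2.43 CPM in WT and 4.26, 3.55 and 5.19 CPM in SCA7 without overlap (log2 fold change 0.65, standard error 0.146, adjusted p = 0.006). *Lama5* was at 15.9, 13.4, 11.3 and 15.0 CPM in WT and 20.5, 17.5 and 17.3 CPM in SCA7 (log2 fold change 0.41, standard error 0.111, adjusted p = 0.017). The *Lama5* call was lost to the p limit without WT replicate 2 (edgeR adjusted p = 0.0505) and to both limits without SCA7 replicate 1 (log2 fold change 0.33, edgeR adjusted p = 0.0915). It was lost to the FC limit alone without WT replicate 3 (log2 fold change 0.32, edgeR adjusted p = 0.0096) and with a correction for base composition and exon length (0.35, adjusted p = 0.010).

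The remaining alpha chains were not called by edgeR with all libraries. *Lama1*, a main alpha chain of the inner limiting membrane, was at 6.99, 7.42, 8.55 and 8.57 CPM in WT and 7.41, 7.17 and 7.65 CPM in SCA7 (log2 fold change −0.09, standard error 0.095, adjusted p = 0.526). *Lama2*, the alpha chain of muscle and nerve basement membranes, was at 2.34, 2.92, 2.64 and 2.63 CPM in WT and 3.69, 3.84 and 2.55 CPM in SCA7 (log2 fold change 0.34, standard error 0.153, adjusted p = 0.116). Without SCA7 replicate 3, its lowest SCA7 library, *Lama2* was called upregulated (log2 fold change 0.51, edgeR adjusted p = 0.024). *Lama3*, the alpha chain of the epithelial laminin, was at 1.98, 1.93, 1.84 and 2.29 CPM in WT and 2.06, 2.11 and 1.82 CPM in SCA7 (log2 fold change −0.01, standard error 0.132, adjusted p = 0.949). The groups overlapped for all 3 of these genes.

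The gamma chains *Lamc1* and *Lamc3* did not pass both thresholds. *Lamc1*, the gamma chain of most laminins, was at 19.3, 18.9, 16.2 and 21.3 CPM in WT and 22.3, 22.3 and 22.9 CPM in SCA7. Every SCA7 library was above every WT library, but the difference (log2 fold change 0.25, standard error 0.084, adjusted p = 0.045) was under the FC limit, with an FC of 1.19. *Lamc3*, a gamma chain of the retina and brain, was at 3.38, 3.01, 2.51 and 3.10 CPM in WT and 2.55, 2.37 and 2.43 CPM in SCA7 (log2 fold change −0.30, standard error 0.127, adjusted p = 0.103).

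**Figure D2:**
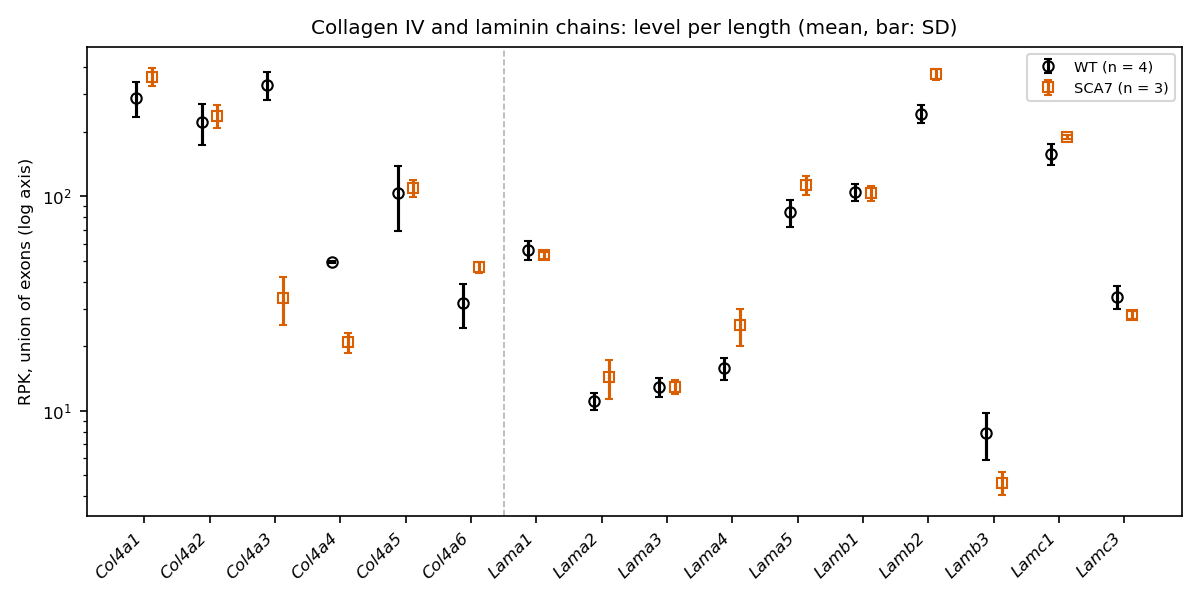
The level per length (RPK with the union of exons as length, log axis, mean with SD as bar, 4 WT and 3 SCA7 libraries) is plotted for collagen IV and laminin chains. *Col4a3* drops from 331 to 33.6 RPK, below *Col4a5* and *Col4a6*, while *Lamb2* rises from 243 to 371 RPK.

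Levels of different genes were compared per length, as RPK, counts scaled by DESeq2 size factors per kb of the union of a gene's exons. In WT retina *Col4a3* ranked 3rd of the 55 members with 331 ± 49.2 RPK (SD, n = 4), after the transmembrane collagen *Col23a1* (764 RPK) and the FACIT collagen *Col9a1* (489 RPK). *Col18a1* with 327 RPK and *Col4a1* with 289 RPK followed, and neither differed from *Col4a3* by more than its SD. In SCA7 retina *Col4a3* ranked 27th with 33.6 ± 8.34 RPK (n = 3), and *Lamb2* moved from rank 7 to rank 3. *Col4a1*, *Col4a5* and *Lamb2* were then 362, 109 and 371 RPK. With the median transcript length, the length used in the study, *Col4a1* ranked first in WT at 3335 RPK, since its median transcript of 647 bases is far shorter than its exons together.

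The last basement membrane members, *Col15a1* and *Col18a1*, carry anti-angiogenic fragments at their ends. *Col18a1*, the source of endostatin, was at 58.6, 20.8, 23.6 and 30.2 CPM in WT and 24.8, 22.2 and 19.5 CPM in SCA7. WT replicate 1, the library with the most *Optc* and *Fbln1*, was alone at the high value, and the difference (log2 fold change −0.59, standard error 0.408, adjusted p = 0.346) shrank to −0.17 without it. *Col15a1* was between 0.844 and 1.19 CPM in WT and between 0.621 and 0.914 CPM in SCA7 (log2 fold change −0.43, standard error 0.192, adjusted p = 0.115).

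Fibrillar collagens held 2 decreases and 2 increases among 11 genes. *Col5a3*, a minor chain of the collagen V that starts fibrils, was at 2.12, 1.65, 1.69 and 2.16 CPM in WT and 3.51, 3.28 and 3.41 CPM in SCA7. All SCA7 libraries were higher, with a log2 fold change of 0.84 and a standard error of 0.132 (adjusted p = 0.000605), and the call held under every alternative. Its family member *Col5a2* was at 1.04, 1.55, 1.11 and 0.749 CPM in WT and 3.19, 1.50 and 1.71 CPM in SCA7. It was upregulated (log2 fold change 0.91, standard error 0.293, adjusted p = 0.041), but SCA7 replicate 2 lay within the WT range and leaving out a library kept the call in 3 of 7 fits. *Col5a1* was at 7.16, 3.96, 3.24 and 6.73 CPM in WT and 4.62, 4.65 and 4.32 CPM in SCA7 (log2 fold change −0.22, standard error 0.263, adjusted p = 0.575).

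*Col27a1*, a fibrillar collagen of cartilage, was at 6.90, 3.82, 2.27 and 7.43 CPM in WT and 1.76, 1.93 and 1.51 CPM in SCA7. It was downregulated (log2 fold change −1.56, standard error 0.425, adjusted p = 0.034), with the lowest WT library close to the SCA7 libraries. *Col24a1*, a low gene, was at 0.786, 0.713, 0.638 and 0.887 CPM in WT and 0.536, 0.457 and 0.535 CPM in SCA7 (log2 fold change −0.57, standard error 0.192, adjusted p = 0.043). The *Col27a1* call was kept in 3 and the *Col24a1* call in 1 of the 7 fits that left out a library.

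The chains of the vitreous fibril and the major fibrillar collagens of connective tissue were not called by edgeR with all libraries. *Col2a1*, the main collagen of cartilage and vitreous, was at 32.6, 29.0, 26.7 and 38.3 CPM in WT and 37.2, 31.9 and 36.3 CPM in SCA7 (log2 fold change 0.15, standard error 0.110, adjusted p = 0.337). *Col11a1*, its minor partner chain, was at 5.16, 2.91, 2.25 and 4.54 CPM in WT and 2.86, 2.23 and 2.19 CPM in SCA7 (log2 fold change −0.62, standard error 0.265, adjusted p = 0.110). *Col11a2* was at 10.8, 5.72, 3.36 and 11.0 CPM in WT and 3.33, 3.34 and 2.93 CPM in SCA7 (log2 fold change −1.28, standard error 0.445, adjusted p = 0.0835). For *Col11a2* the lowest WT library, replicate 3, was barely above the SCA7 libraries. Without it *Col11a1* (log2 fold change −0.80, edgeR adjusted p = 0.012) and *Col11a2* (log2 fold change −1.52, edgeR adjusted p = 0.0097) were called downregulated, as they were by the DESeq2 Wald test of all 7 libraries (adjusted p = 0.044 and 0.026).

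The collagen I and III genes, made mainly by fibroblasts, showed no such separation. *Col1a1* was at 1.86, 3.69, 1.58 and 2.17 CPM in WT and 2.13, 2.58 and 0.943 CPM in SCA7 (log2 fold change −0.33, standard error 0.406, adjusted p = 0.592). *Col1a2* was at 9.70, 5.98, 4.95 and 5.95 CPM in WT and 6.24, 7.98 and 4.26 CPM in SCA7 (log2 fold change −0.11, standard error 0.281, adjusted p = 0.800). *Col3a1* was at 3.28, 3.91, 2.57 and 2.77 CPM in WT and 3.85, 3.90 and 3.45 CPM in SCA7 (log2 fold change 0.25, standard error 0.146, adjusted p = 0.230). Of 12 fibroblast markers, *Pdgfra* and *Prelp* rose and *Igfbp6* fell, while 8 of the 12 were lower on average (median log2 fold change −0.53). The summed level of the 12 lay between 53.9 and 99.7 CPM in WT, the highest in replicate 1, and between 57.3 and 63.4 CPM in SCA7.

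Compared by class, the median log2 fold change was 0.05 for the basement membrane genes, with 3 decreases and 4 increases in 19 genes, and −0.22 for the fibrillar genes, with 2 and 2 in 11. Leaving out a library gave basement membrane medians between −0.05 and 0.06 and fibrillar medians between −0.39 (without WT replicate 3) and 0.01 (without SCA7 replicate 3). The per-library difference between the class medians (each gene's log2 level relative to its WT mean) was 0.0152 ± 0.153 in WT (SD, n = 4) and 0.212 ± 0.206 in SCA7 (SD, n = 3). The libraries of the genotypes overlapped, with values from −0.183 to 0.161 in WT and from 0.0492 to 0.444 in SCA7. Of the summed RPK of the members, with the study's length, basement membrane genes held 55.0% ± 2.00 (SD, n = 4) in WT and 59.1% ± 0.410 (n = 3) in SCA7. Fibrillar genes held 16.3% ± 1.04 and 17.3% ± 0.452. With the union of exons these shares in WT were 38.5% and 9.48%, so the length used moves them more than the genotype.

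**Figure D3:**
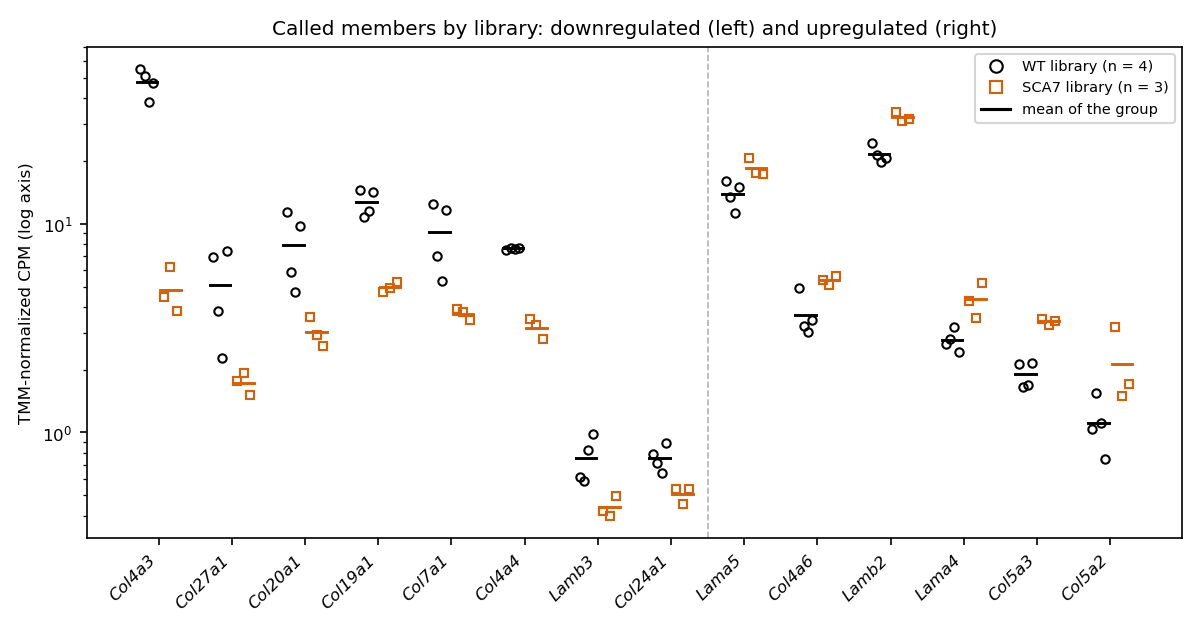
Levels of the 14 called members are plotted by library in TMM-normalized CPM on a log axis, with a line at the mean of each group (4 WT and 3 SCA7 libraries). The groups are separate for 13 genes and overlap for *Col5a2*, and the WT points of *Col27a1*, *Col20a1* and *Col7a1* are spread widely.

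Of the 9 FACIT collagens 8 were lower in SCA7 (median log2 fold change −0.29), and 2 of them were downregulated. *Col19a1*, a FACIT collagen made by neurons in the brain, was at 14.5, 10.7, 11.5 and 14.2 CPM in WT and 4.71, 4.92 and 5.27 CPM in SCA7. The groups were far apart (log2 fold change −1.36, standard error 0.118, adjusted p = 5.91e-06). *Col20a1* was at 11.4, 5.87, 4.69 and 9.79 CPM in WT and 3.59, 2.93 and 2.59 CPM in SCA7 (log2 fold change −1.39, standard error 0.333, adjusted p = 0.020), and its call was kept in 3 of the 7 fits without a library. It shares 1.54% of its exon bases with *BX649560.1* on the same strand. *Col22a1*, at log2 −0.46 (standard error 0.143, adjusted p = 0.031), was separated between the groups but fell short of the FC limit. The 3 *Col9* genes, whose chains form collagen IX of the vitreous and cartilage, were between −0.21 and −0.07 and all highest in WT replicate 1.

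*Col7a1*, whose product anchors epithelial basement membranes to the tissue beneath, was at 12.5, 7.03, 5.31 and 11.6 CPM in WT and 3.90, 3.76 and 3.44 CPM in SCA7. It was downregulated (log2 fold change −1.30, standard error 0.306, adjusted p = 0.018). The call was lost without any 1 of the SCA7 libraries, with an adjusted p of up to 0.067.

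Beaded filament, network and transmembrane collagens held no called member in the edgeR fit without covariates. All 5 collagen VI genes tested were lower in SCA7 on average, with log2 fold changes between −0.95 and −0.33, and adjusted p values of 0.083 or more. *Col6a1*, the most abundant of them, was at 20.5, 11.0, 8.78 and 20.6 CPM in WT and 9.41, 7.62 and 6.76 CPM in SCA7 (log2 fold change −0.95, standard error 0.365, adjusted p = 0.111). The DESeq2 Wald test also called *Col6a1* (adjusted p = 0.044) and the FACIT collagen *Col12a1* (adjusted p = 0.036) down. *Col8a2*, a network collagen of Descemet's membrane, had a log2 fold change of −1.04 with a standard error of 0.478 (adjusted p = 0.171). Transmembrane collagens were between −0.16 and 0.39, and *Col23a1*, the member with the highest level per length in both genotypes, was at −0.16 (standard error 0.071, adjusted p = 0.113). *Col6a5* had too few counts to be tested, 2 to 13 per library.

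Members differed among the WT libraries more than most genes did. The median coefficient of variation in WT was 26.5% for the collagens and 11.1% for the laminins, against 8.93% over the protein-coding genes tested. In SCA7 these values were 12.2%, 7.22% and 4.89%. *Col7a1*, *Col20a1*, *Col27a1*, *Col5a1*, *Col6a1*, *Col11a1* and *Col11a2* shared a pattern in which WT replicates 1 and 4 were high and replicates 2 and 3 low, with a ratio of highest to lowest between 2.21 and 3.29. With a correction for base composition and exon length, *Col7a1*, *Col20a1* and *Col27a1* were still downregulated (edgeR adjusted p between 0.0096 and 0.025). The count of 8 decreases became 3 without SCA7 replicate 1, 4 without WT replicate 4, 5 without SCA7 replicate 2 or 3, and 12 without WT replicate 3. The count of 6 increases became 3 without SCA7 replicate 1. Members not called with all libraries, but called in edgeR with 1 left out, were *Col11a1*, *Col11a2*, *Col15a1* and *Col6a4* (lower) and *Col10a1* (higher) without WT replicate 3, *Col12a1* and *Col6a6* (lower) without SCA7 replicate 2, *Lama2* (higher) without SCA7 replicate 3, and *Col22a1* (lower) without WT replicate 2 or SCA7 replicate 3, with adjusted p values between 0.0097 and 0.049. *Col4a3*, *Col4a4* and *Col19a1* among the decreases, and *Lamb2*, *Lama4* and *Col5a3* among the increases, were called in all 17 alternative analyses. The analysis with no FC threshold could not lose a call.

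**Figure D4:**
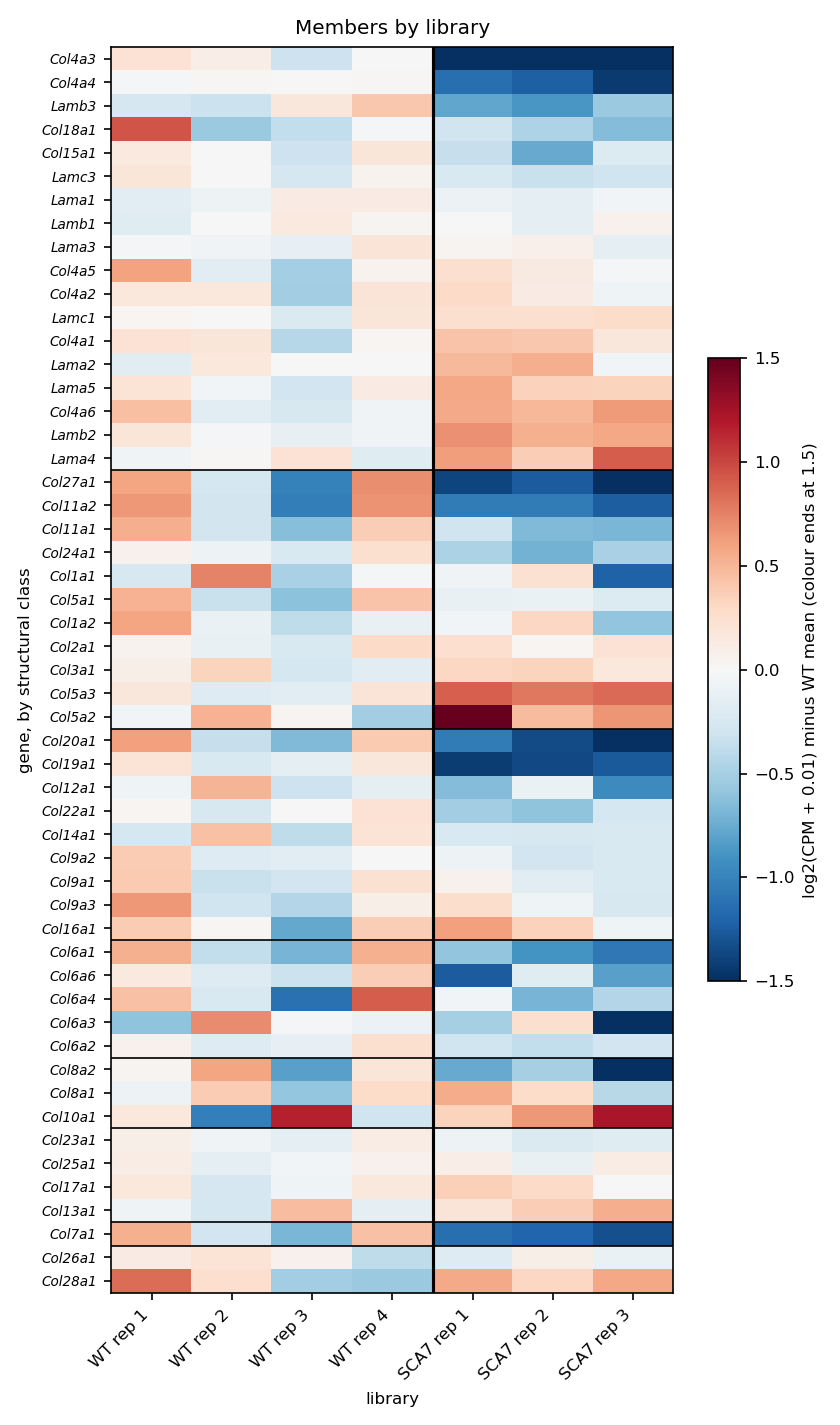
Each cell of the map gives the log2 level of a member in 1 library relative to its WT mean, by structural class. The 3 SCA7 columns are dark blue for *Col4a3*, *Col4a4*, *Col7a1*, *Col19a1*, *Col20a1* and *Col27a1*, among others. Several fibrillar and FACIT genes also differ between the WT columns.

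Since whole retinas were sequenced, fewer cells of a type and less RNA per cell cannot be told apart, and the markers of several cell types moved with the genotype. All 8 rod markers fell, to a sum between 15725 and 20418 CPM, and all 8 cone markers fell, from between 1415 and 1694 to between 244 and 271 CPM. Reactive glia markers rose in 6 of 7 genes (61.1 to 75.9 CPM in WT, 392 to 456 CPM in SCA7), and microglia markers in 8 of 8 (44.3 to 55.7 and 110 to 123 CPM). Of 3 astrocyte markers, 2 of them tested, *Aldh1l1* rose (sums of 27.8 to 34.7 and 43.4 to 45.5 CPM), and of 4 muscle markers, 3 of them tested, which summed to no more than 3.99 CPM in any library, *Ckm* and *Acta1* fell. Of 7 Müller glia markers *Clu* rose, and the sum of the 7 overlapped between genotypes. *Aqp4* (log2 fold change 0.31), *Kcnj10* (0.33) and *Glul* (−0.36) had groups that did not overlap and edgeR adjusted p values between 0.0063 and 0.016, short of the FC limit. Of 8 endothelial markers, *Cdh5*, *Kdr*, *Tie1* and *Emcn* rose, and the sum of the 8 was 208 to 249 CPM in WT and 275 to 335 CPM in SCA7. *Kdr* made up much of this sum, with a mean of 106 CPM in WT and 171 CPM in SCA7. *Cldn5* went the other way, at 11.7 to 17.2 CPM in WT and 10.6 to 11.2 CPM in SCA7 (log2 fold change −0.48, adjusted p = 0.011), short of the FC limit. *Pecam1*, a defining endothelial gene, had a log2 fold change of −0.01 (adjusted p = 0.925). Of 8 pericyte and smooth muscle markers, *Abcc9* rose, with sums of 125 to 142 and 149 to 168 CPM.

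Markers of the pigment epithelium, which rests on Bruch's membrane and may cling to a dissected retina, moved in both directions. Of its 13 markers *Rpe65*, *Lrat*, *Rgr*, *Rdh5* and *Ttr* fell and *Slc45a2* rose (a call kept in 2 of the 7 fits without a library). On average 7 of the 13 were lower and 6 higher (median log2 fold change −0.54). The sum of all 13 was 145 to 280 CPM in WT and 42.9 to 87.1 CPM in SCA7. *Rgr* and *Ttr*, with means of 71.0 and 69.0 CPM in WT, made up much of this sum. Of 5 ciliary epithelium markers *Aqp1* fell, and all 5 were lower on average (median log2 fold change −1.04). The sum of the 5 was 205 to 258 CPM in WT and 76.2 to 94.5 CPM in SCA7, most of it *Aqp1*, so it describes this gene more than the cell type. *Aqp1* was at 221, 231, 235 and 188 CPM in WT and did not follow *Optc* across these libraries. *Zic1* (log2 fold change −0.03), *Zic2* (−0.17) and *Otx1* (−1.04) overlapped between the genotypes. The share of these cell types in the change of any collagen or laminin was not tested. Without WT replicate 1, the library rich in *Optc* and *Fbln1*, 7 members were downregulated and 5 upregulated.

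**Figure D5:**
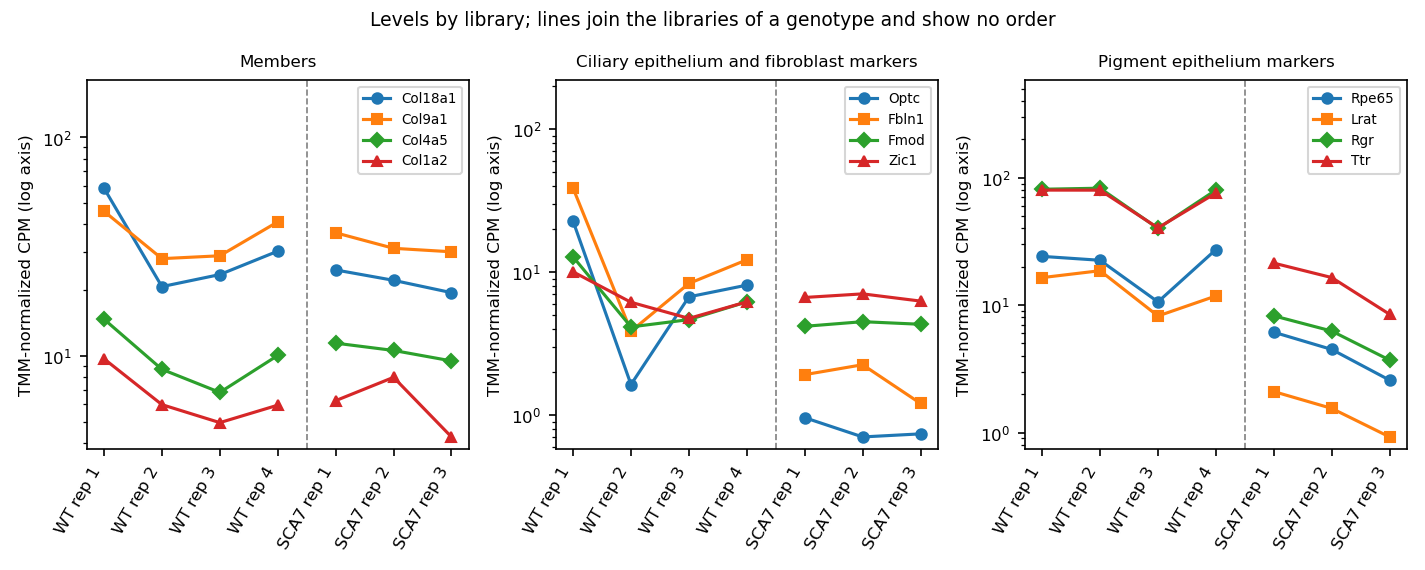
Levels of 4 members, 4 ciliary epithelium and fibroblast markers and 4 pigment epithelium markers are plotted by library in TMM-normalized CPM on a log axis. WT replicate 1 is the highest library for *Col18a1*, *Col9a1*, *Optc* and *Fbln1*, and WT replicate 3 the lowest WT library for *Rpe65*, *Lrat*, *Rgr* and *Ttr*.

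The proteins that surround, fold and cut these chains were described by 5 further lists of 77 genes, 74 of them tested. Of these 20 were upregulated and 2 downregulated (median log2 fold change 0.22), against 8.81% and 6.13% of all protein-coding genes tested. Among 13 basement membrane partners, *Sparc*, a matrix protein that binds collagen IV, rose by 0.62 on the log2 scale (standard error 0.067, adjusted p = 3.2e-05) and *Ntn4*, a netrin that binds laminin, by 0.61. *Hspg2*, which encodes perlecan, rose from between 3.53 and 4.70 CPM to between 5.42 and 6.65 CPM, and *Smoc2* fell by 0.61 (adjusted p = 0.035), a call kept in 4 of the 7 fits without a library. *Nid1*, the nidogen that links laminin to collagen IV, had a log2 fold change of 0.37 (adjusted p = 0.133).

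Of 17 receptors 6 rose and *Itga10*, a collagen-binding integrin subunit, fell by 0.59 on the log2 scale (adjusted p = 0.034), a call kept in 2 of the 7 fits without a library. The largest increases were those of the laminin-binding integrin subunits *Itgb4* (log2 fold change 1.21, standard error 0.229, adjusted p = 0.002) and *Itga6* (0.70, standard error 0.099, adjusted p = 0.000277). Among 23 folding and crosslinking genes *Fkbp10*, *Loxl3* and *Serpinh1* rose and none fell. *Serpinh1*, the collagen chaperone HSP47, rose by 0.38 on the log2 scale (standard error 0.120, adjusted p = 0.034), and the call was kept in 2 of the 7 fits without a library.

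Among the 74 partner genes tested, the largest increases were those of a protease inhibitor and of a gene for the trimming of procollagen. *Pcolce*, which enhances the cleavage of procollagen ends, was at 8.71, 4.43, 5.76 and 4.65 CPM in WT and 28.7, 24.8 and 24.7 CPM in SCA7 (log2 fold change 2.15, standard error 0.223, adjusted p = 0.000364). *Bmp1*, the protease it enhances, rose by 0.98 on the log2 scale (standard error 0.087, adjusted p = 7.18e-06). Of 15 proteases and inhibitors tested 6 rose, among them *Timp4* with a log2 fold change of 0.87. *Timp1*, an inhibitor of matrix metalloproteinases, was at 0.359, 0.154, 0.281 and 0.107 CPM in WT and 1.79, 1.75 and 2.24 CPM in SCA7 (log2 fold change 3.13, standard error 0.282, adjusted p = 8.62e-06). Every SCA7 library was above every WT library for both *Pcolce* and *Timp1*.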

How the data were processed

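Total RNA from the 2 retinas of each mouse was depleted of ribosomal RNA and made into stranded libraries. The authors aligned reads to mm10 with TopHat2 2.0.14 and Bowtie2 2.1.0 and assigned them to Ensembl genes with HTSeq 0.6.1, as named in the submitters' processing notes, and deposited raw counts of 52550 genes without normalization. The strand option of the counting is not given in the sources used here, so a gene and an antisense partner may not be told apart. Totals lay between 56497675 and 96635832 counts per library, and precision is given as an SD between mice or as the fit's standard error.

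Symbols, positions, biotypes and lengths came from GENCODE M21 (GRCm38) for 52403 genes. Genes were kept by filterByExpr, scaled by TMM and tested by quasi-likelihood in edgeR 4.0.16 (robust glmQLFit, glmQLFTest) in R 4.3.3, without covariates. The single values of 1 member are not reported here, though counts and medians include it. No pair of replicate libraries agreed within sampling noise. The members, classes and lists were chosen with earlier results of these data known. Every member could be named, with full values for called members and for collagen IV, laminin and fibrillar genes of at least 1 CPM. In each partner list the 2 called genes with the largest change, and *Sparc*, *Serpinh1*, *Nid1*, *Hspg2* and *Timp1*, were named, and called markers by name alone. *Ntn4*, *Itga10*, *Nid2*, *Mmp14*, *Pecam1*, *Cldn5*, *Optc*, *Zic1*, *Zic2*, *Otx1*, *Fbln1*, *Aqp4*, *Kcnj10* and *Glul* were named after their values were seen.

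Alternatives were DESeq2 1.42.0 size factors, the DESeq2 Wald test, limma-voom (limma 3.58.1), a filter of 1 count in any or 10 counts in all libraries, the replicate number as a block, *Xist* as a covariate (at most 0.300 CPM in every library), an adjusted p under 0.01, no FC threshold, each library left out, and, chosen after seeing the data, a correction for GC content and length. Ratios of chains used 0.5 counts added, or 2 counts. Genes most like *Col4a3* across libraries were not sought, since the libraries fall into 2 clusters by genotype. In simulated data with a log2 change of 1, the edgeR step recovered 150 of 155 changed genes of at least 1 CPM among 19828 genes, with 13 wrong calls.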

Additional observations from a re-analysis of the deposited data

Results flagged for a closer look

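Among the 54 members checked, the WT group held 1 library far from the others. *Col4a2* was at 14.5 CPM in WT replicate 3, while the other WT libraries lay between 23.3 and 23.8 CPM, so that the gap took 0.956 of the range and passed Dixon's limit. Chance alone puts about 1 in 20 groups above that limit. The group of 3 SCA7 libraries was too small for this check. Without WT replicate 3, the log2 fold change of *Col4a2* was −0.05 (main value 0.09), and it was called in neither fit.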

How the results depend on the processing

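Across the 17 alternative analyses no called member changed its sign. Those that altered only the p or the FC limit kept the main estimates and could not change it. The members downregulated numbered 8 in the analysis reported, 4 with no filter beyond 1 count, 3 at an adjusted p under 0.01, and between 3 and 12 with a library left out. The members upregulated numbered 6, 3 at an adjusted p under 0.01, and between 3 and 6 with a library left out. Basement membrane members held 3 decreases (2 to 4 with a library left out) and 4 increases (2 at an adjusted p under 0.01, 2 to 4 with a library left out). Fibrillar members held 2 decreases, but 1 with limma-voom or the replicate block, 0 with no filter or at an adjusted p under 0.01, and 0 to 4 with a library left out. They held 2 increases, but 1 with limma-voom, no filter, the replicate block, the *Xist* covariate, the GC and length correction or an adjusted p under 0.01, and 1 to 2 with a library left out. The partner genes downregulated numbered 2, 1 with the DESeq2 Wald test or no filter, 0 at an adjusted p under 0.01, 4 with no FC threshold, and 0 to 2 with a library left out. The partner genes upregulated were 17 to 22 of 74 with a library left out. With the union of exons as length, the basement membrane share of summed RPK in WT moved from 55.0% to 38.5% and the fibrillar share from 16.3% to 9.48%, while leaving out a WT library gave 54.3% to 55.8% and 15.8% to 16.7%. The median log2 fold change over all members was between −0.22 and −0.06 with a library left out.

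Of the log2 chain ratios, that of *Col4a4* to *Col4a3* lay between 1.95 and 2.24 with a library left out, where fewer splits exist and no p can pass. Those of *Col4a2* to *Col4a1* lay between −0.26 and −0.16, of *Col4a6* to *Col4a5* between 0.35 and 0.54, of *Lamb2* to *Lamb1* between 0.54 and 0.75, and of *Col1a2* to *Col1a1* between −0.043 and 0.52, the last changing sign. The labels do not say whether the replicate numbers pair the samples. Deviations of same-numbered libraries correlated weakly, at 0.00527, 0.204 and 0.0893, and those of differently numbered libraries at −0.208 to 0.141. These values do not decide whether the samples are paired, and the main fit used no pairing. With the number as a block, 10 members were downregulated and 5 upregulated, of which 6 and 5 were also called without it. The block added decreases of *Col6a1*, *Col6a3*, *Col8a2* and *Col12a1* (edgeR adjusted p between 1.9e-14 and 0.043) and lost *Lamb3*, *Col24a1* and *Col5a2*. Among the partner genes it lost the decrease of *Itga10* and the increases of *Serpinh1* and *Mmp14*, and added a decrease of *Nid2*. With 3 or 4 mice per group, the decreases of *Col24a1* and *Lamb3*, both below 1 CPM, were called or not depending on the library left out. So were the larger decreases of *Col7a1*, *Col20a1* and *Col27a1*. The cause of these differences was not tested.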
